A study of Mus musculus with 12 samples.

Results

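The transcript response of Ocy454 cells to PF431396 was measured by RNA sequencing against vehicle. PF431396 is a small molecule that blocks focal adhesion kinase (FAK, the product of Ptk2) and the related kinase PYK2 (from Ptk2b). Ocy454 is a mouse cell line made immortal, with osteocyte features, and osteocytes are the cells that live inside bone matrix. Every row of the inhibitor table that carries a gene symbol was taken, which gave 11484 of the 11996 genes named in any of the 3 deposited tables. No listed row was left out for its values, but the deposited table is itself limited by level. None of its genes has under 11 estimated counts in any library, so genes nearly absent from either group are missing. The comparison uses 6 of the 12 samples of the series, 3 labelled wild type with vehicle (DMSO in the column names) and 3 labelled wild type with PF431396. The other samples received parathyroid hormone (PTH) or carried a PDE8A knockout (KO), and they enter here only where that is said. The labels give neither the dose and duration of PF431396, nor whether those cells also received DMSO, nor whether the replicates were separate cultures. The p-values therefore measure the spread between these libraries, which may be technical.

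FAK and PYK2 are tyrosine kinases that gather at focal adhesions, where integrins connect the extracellular matrix to the actin cytoskeleton. Once integrins engage matrix, FAK phosphorylates itself, recruits SRC and phosphorylates adaptors such as p130Cas (Bcar1) and paxillin, and these signals reach the actin cytoskeleton, ERK and transcription factors. In bone cells both kinases are known for their part in sensing mechanical load and matrix.

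The values of PF431396 replicate 3 were identical to those of replicate 1 in all 11484 rows, so they were counted once, and the comparison had 3 vehicle and 2 PF431396 libraries of 27715795 to 31642132 estimated counts. Values are given in the order of library numbers, as normalised estimated counts. Vehicle library 1 stood apart: its Pearson correlation on the log2 scale was 0.945 with library 2 and 0.943 with library 3, while that between libraries 2 and 3 was 0.992 (across genes, which are no replicates). The correlation between the PF431396 libraries was 0.954, and 232 genes differed between them by more than 2 log2 units. Between vehicle libraries 209 genes did so for 1 and 2, 231 for 1 and 3, and 10 for 2 and 3. Of 18 osteocyte markers, 14 were listed in all 5 libraries, Dmp1, Phex and Pdpn among them, while Sost, Mepe, Fgf23 and Dkk1 were not among the rows analysed here.

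A gene was counted as higher or lower when its log2 fold change against vehicle was at least 1 in size and its limma p-value, adjusted by the Benjamini-Hochberg method over all 11484 genes, was below 0.05. By this rule 1257 genes (10.9%) were higher with PF431396 and 1748 (15.2%) were lower, 26.2% in all. The counts of every gene list below are to be read against these shares. The authors' deposited table gave 1564 higher (13.6%) and 1969 lower (17.1%) genes at the same thresholds, 30.8% in all, and 2928 genes were called in both. That table also holds the repeated PF431396 library, and whether the authors' calls used it is not known here. Without PF431396 library 1 the numbers were 743 higher and 1434 lower, and without PF431396 library 2 they were 570 and 1186. In every one of the 5 runs that left out a library, 383 of the genes were called higher and 847 lower. A run without a PF431396 library holds a single inhibitor library, which is taken to vary as the vehicle libraries do.

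The balance of higher and lower genes depended on how libraries were scaled. The deposited scaling put the median change of all genes, on the log2 scale, at -0.02. When every library was instead scaled to the same total, the median moved to -0.55, and 344 genes (3.00%) were higher and 3470 (30.2%) lower. Those 344 increases were all called with the deposited scaling too, and all 1748 decreases of the deposited scaling were also called with the same total. This nesting follows largely from the rescaling, which lowers the log2 fold change of every gene by nearly the same amount. It is therefore no check of the decreases. Another 913 genes were called higher with the deposited scaling alone, and 1722 lower with the same total alone. Fold changes below are those of the deposited scaling unless the same total is named, and an increase should be read against this shift. A remark that the groups of a called gene did not overlap describes its values and adds no support to the call.

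Counts were also spread less evenly over genes in the PF431396 libraries. The 100 most abundant genes took 15.9, 20.4 and 19.9% of the vehicle libraries and 33.6 and 34.5% of the PF431396 libraries. To reach 50% of a library took 1110, 935 and 959 genes with vehicle and 343 and 329 with PF431396. Neither measure overlapped between the groups. The share of mitochondrially encoded transcripts was 3.89, 5.19 and 4.67% of the vehicle libraries and 11.8 and 13.0% of the PF431396 libraries. The difference of 7.82 percentage points had an exact permutation p of 0.1 (two-sided), the smallest that 3 against 2 libraries can give.

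**Figure D1:**
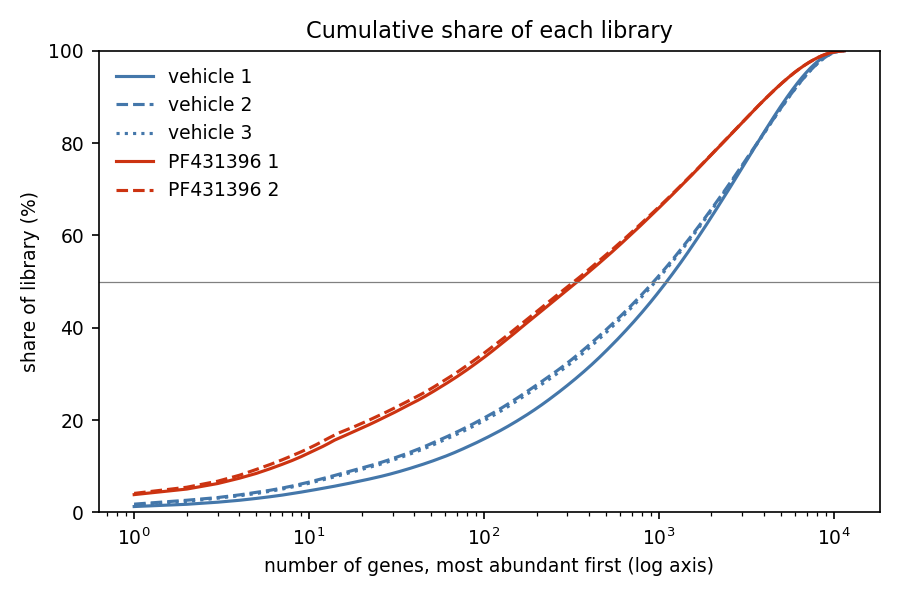
Cumulative share of each library (vertical axis, percent of normalised estimated counts) taken by its most abundant genes (horizontal axis, number of genes, log scale), for 3 vehicle and 2 PF431396 libraries. The PF431396 curves reach the grey line at 50% after 343 and 329 genes, the vehicle curves after 935 to 1110.

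The transcripts of the targeted kinases did not pass the test. Ptk2 was at 2569, 2448 and 2539 with vehicle and 2199 and 3201 with PF431396, and its log2 fold change of 0.08 ± 0.20 (SE; limma adjusted p = 0.788) turned to -0.46 with the same total. Ptk2b was scarce, at 11.3, 17.6 and 33.9 with vehicle and 80.3 and 37.3 with PF431396 (1.48 ± 0.64, adjusted p = 0.113). The drug acts on the proteins, so these values do not check whether the kinases were inhibited.

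Among 36 measured genes for FAK, PYK2 and the proteins that bind them at focal adhesions, 0 were higher by limma (10 at an unadjusted p below 0.05 and any fold) and 3 lower (8.33%, against 15.2% of all genes), with a median log2 fold change of 0.09. The lower count was 5 without vehicle library 1 and 5 without PF431396 library 1, and 10 with the same total. The 3 lower genes encode p130Cas and the CRK adaptors that bind it. Bcar1, the p130Cas substrate of FAK and SRC, was at 2209, 2036 and 2154 with vehicle and 655 and 592 with PF431396 (-1.77 ± 0.17, adjusted p = 0.00262). All vehicle libraries lay above both inhibitor libraries. Crk, an adaptor that binds phosphorylated p130Cas, was at 5350.0, 5061 and 5057 with vehicle and 2063 and 2550.5 with PF431396 (-1.17 ± 0.16, adjusted p = 0.00426). Its relative Crkl was at 5791, 3234 and 3302 with vehicle and 1139.7 and 1006 with PF431396 (-1.88 ± 0.29, adjusted p = 0.0056), a call that ended without PF431396 library 2 (-1.79, adjusted p = 0.0532). Neither adaptor's groups overlapped.

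Integrin subunits went the other way. Of 15 measured, 6 were higher (40.0%, against 10.9% of all genes) and none was lower (0 at an unadjusted p below 0.05), with a median of 1.28. The higher count was 3 without PF431396 library 1 and 3 without PF431396 library 2, and 1 with the same total. Itgb1, the beta-1 chain shared by most matrix-binding integrins, rose from 35436, 38293 and 38373 to 89912 and 90922 (1.28 ± 0.13, adjusted p = 0.00262). Itgav, the alpha chain of vitronectin receptors, rose from 2708, 2882 and 2947 to 7190.0 and 8313 (1.44 ± 0.15, adjusted p = 0.00269). For both genes the inhibitor libraries lay far above the vehicle libraries, although neither fold change reached 1 with the same total (0.74 and 0.91). Itgb4 was discordant, at 24.2, 24.8 and 27.7 with vehicle and 15.1 and 1182 with PF431396, and was not called. Without PF431396 library 1 it passed (5.48, adjusted p = 0.021).

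Of 27 actin and contractile genes linked to SRF and MRTF, 7 were higher and 1 lower, and the higher count was 3 without PF431396 library 1 and 3 without PF431396 library 2. The lower count was 2 without PF431396 library 1 and 2 without PF431396 library 2, and with the same total 2 were higher and 4 lower. With all libraries 25.9% of these 27 genes were higher and 3.70% lower, against 10.9 and 15.2% of all genes. Of 24 YAP/TAZ genes and targets, 3 were higher and 4 lower (12.5 and 16.7%, against 10.9 and 15.2% of all genes). Without PF431396 library 1 only 1 was higher, and with the same total 1 was higher and 9 were lower.

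**Figure D2:**
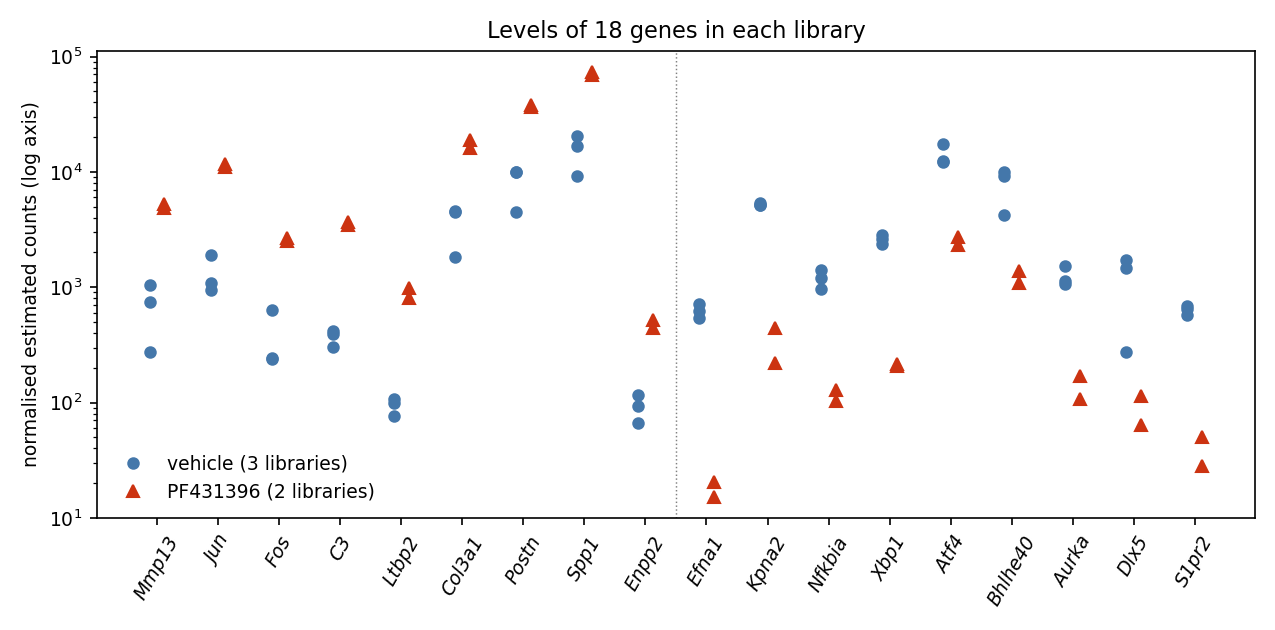
Levels of 18 genes in each library (vertical axis, normalised estimated counts, log scale), with vehicle as circles and PF431396 as triangles; genes left of the dotted line were called higher and those to its right lower. In every gene shown the 3 circles and the 2 triangles do not overlap. The 18 genes were picked from the called genes, so this separation follows largely from the choice.

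Immediate early genes encode transcription factors that cells induce within minutes of a stimulus, and the AP-1 factors among them are dimers of JUN and FOS proteins. Of 44 such genes, 6 were higher and 13 lower (13.6 and 29.5%, against 10.9 and 15.2% of all genes), with a median of -0.34. The higher count was 3 without PF431396 library 2, and the lower count was 6 without PF431396 library 2. Among the increases were AP-1 subunits. Jun was at 1915, 954 and 1078 with vehicle and 11034 and 11661 with PF431396 (3.18 ± 0.31, adjusted p = 0.00262). Fos was at 639.6, 243 and 237 with vehicle and 2527 and 2649.9 with PF431396 (2.95 ± 0.45, adjusted p = 0.00571), and its call ended without PF431396 library 2 (2.92, adjusted p = 0.0531). Jund rose from 3206, 3437 and 3696 to 10032 and 10409 (1.57 ± 0.14, adjusted p = 0.00247), and Junb by 1.54 ± 0.17. Vehicle library 1 held the highest vehicle value of Jun and of Fos, and each inhibitor library was still above it.

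The decreases in this group included Krüppel-like factors, a family of zinc finger regulators. Klf9 was at 2719.6, 2140.0 and 2234 with vehicle and 566 and 533 with PF431396 (-2.10 ± 0.19, adjusted p = 0.00247). Hes1, a Notch target that represses transcription, was at 1048, 819 and 1003 with vehicle and 191 and 221 with PF431396 (-2.20 ± 0.24, adjusted p = 0.00287). Its inhibitor values, like those of Klf9, lay below every vehicle library. Klf11 fell as well (-2.87 ± 0.46, adjusted p = 0.00632), as did Gadd45b, a stress-induced growth arrest gene (-2.24 ± 0.26, adjusted p = 0.00317). The serum-response genes Egr1 and Myc did not pass (1.10 and -0.45, adjusted p = 0.14 and 0.133).

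The promoter windows of Jun and Fos are shown because both genes carry short elements known to bind AP-1 and CREB/ATF factors. Each holds RefSeq bases from 250 before to 50 after the start site, in build GRCm38.p6. The Jun window is chr4:95052173-95052472 on the minus strand, and capitals mark the TGACNTCA match that begins 45 bases before the start site. The Fos window is chr12:85473640-85473939 on the plus strand, and capitals mark matches to TGACG, 129 and 66 bases before the start.
Jun: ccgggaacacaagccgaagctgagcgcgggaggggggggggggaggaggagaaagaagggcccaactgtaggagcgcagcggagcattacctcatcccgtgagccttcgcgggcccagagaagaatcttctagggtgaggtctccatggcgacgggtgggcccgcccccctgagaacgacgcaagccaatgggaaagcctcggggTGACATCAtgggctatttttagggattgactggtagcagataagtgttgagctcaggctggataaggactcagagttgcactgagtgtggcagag
Fos: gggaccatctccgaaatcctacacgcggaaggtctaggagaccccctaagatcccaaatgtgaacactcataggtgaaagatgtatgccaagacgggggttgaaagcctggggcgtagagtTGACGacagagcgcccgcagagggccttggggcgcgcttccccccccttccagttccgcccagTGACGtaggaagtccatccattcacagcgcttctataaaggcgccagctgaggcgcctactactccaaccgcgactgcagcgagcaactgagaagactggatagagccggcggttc
Read on either strand, TGACNTCA is in 8.97% and TGACG in 21.02% of 27025 windows of this kind. TGACG is also part of TGACNTCA wherever N is G. The matches describe the sequence and say nothing of which factor was bound.

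Matrix genes were called mainly in the direction of increase. Among 41 genes for collagen chains and collagen processing, 30 were higher (73.2%) and none lower (0 at an unadjusted p below 0.05), all 41 had positive fold changes, and the median was 1.502. With the same total 14 were still called higher and the median was 0.97. The count rested on both inhibitor libraries, being 9 without PF431396 library 1 and 6 without PF431396 library 2. These genes were also low in vehicle library 1, and the list took 0.776, 1.88 and 2.14% of vehicle libraries 1 to 3, against 2.60 and 2.43% of the PF431396 libraries. Without vehicle library 1 the count was 26.

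Plod2, the lysyl hydroxylase that prepares collagen for stable crosslinks, rose from 1712, 3495 and 3704 to 15087 and 13389 (2.34 ± 0.34, adjusted p = 0.00516). Col3a1, the chain of type III collagen, was at 1828, 4582 and 4515 with vehicle and 18832 and 16199.6 with PF431396 (2.38 ± 0.41, adjusted p = 0.00764). Its call ended without PF431396 library 1 (2.27, adjusted p = 0.0654) or library 2 (2.49, 0.0597). Groups did not overlap for either gene. The main bone collagen chains did not pass: Col1a1 was at 28616, 101024 and 121009 with vehicle and 169081 and 150319 with PF431396 (1.18 ± 0.59, adjusted p = 0.158). The range of its vehicle libraries exceeded the difference between the group means.

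Laminins, fibulins, microfibril proteins and proteoglycans had increases too. Of 50 measured, 30 were higher (60%, against 10.9% of all genes) and none lower (0 at an unadjusted p below 0.05), with a median of 1.30. The higher count was 14 without PF431396 library 1 and 9 without PF431396 library 2, and 15 with the same total. Ltbp2, a microfibril protein, had the largest increase of the list, at 3.24 ± 0.31. Tnxb, which encodes tenascin X, rose from 28.6, 26.4 and 35.7 to 150.2 and 159 (2.33 ± 0.40, adjusted p = 0.00738). Fbln1, a fibulin of elastic fibres and basement membranes, rose from 473, 762 and 844 to 2596 and 2283 (1.85 ± 0.29, adjusted p = 0.00575). Fn1, which encodes fibronectin, the main ligand of alpha-5 beta-1 integrin, was among the 15 most abundant increases, from 99888, 110002 and 113762 to 238487 and 245232 (1.17 ± 0.13, adjusted p = 0.00301, 0.63 with the same total). Each of these genes was higher in both inhibitor libraries than in any vehicle library.

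Of 35 matrix proteases and inhibitors, 14 were higher (40%, against 10.9% of all genes) and none lower (2 at an unadjusted p below 0.05, 1 called without vehicle library 1). It took both inhibitor libraries to reach this count, which was 8 without PF431396 library 1 and 6 without PF431396 library 2, and with the same total 3 were higher and 2 lower. Mmp2, the gelatinase A gene, rose from 2911, 3918 and 4121 to 13497 and 13838 (1.92 ± 0.19, adjusted p = 0.00262). Plau, which encodes urokinase, rose from 267, 290.4 and 332 to 768 and 796 (1.40 ± 0.24, adjusted p = 0.00734), though by 0.87 with the same total. Mmp13, the collagenase of bone and cartilage, had 275, 751 and 1039 with vehicle and 4815 and 5266 with PF431396 (3.07 ± 0.53, adjusted p = 0.00777), and its call ended when either inhibitor library was left out (3.13, adjusted p = 0.0574, and 3.00, 0.0677). Its promoter window is printed because the AP-1 element TGACTCA, in capitals, begins 35 bases before the start site (chr9:7272264-7272563, plus strand, RefSeq GRCm38.p6).
Mmp13: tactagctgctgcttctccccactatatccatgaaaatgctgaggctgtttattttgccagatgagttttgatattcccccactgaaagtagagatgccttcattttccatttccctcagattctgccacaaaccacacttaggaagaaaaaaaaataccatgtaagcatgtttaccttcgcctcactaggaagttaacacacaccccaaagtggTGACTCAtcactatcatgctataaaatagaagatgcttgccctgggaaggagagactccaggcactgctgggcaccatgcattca
TGACTCA, on either strand, is in 5.17% of the 27025 windows, and binding there was not measured.

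Genes of the bone lineage were called in both directions. Of 24 osteoblast factors and bone matrix genes, 3 were higher and 2 lower (12.5 and 8.33%, against 10.9 and 15.2% of all genes). Left-out libraries moved these counts: higher genes numbered 6 without vehicle library 1, 5 without vehicle library 3, 1 without PF431396 library 1 and 1 without PF431396 library 2, and the lower count was 7 without vehicle library 1, 1 without PF431396 library 1 and 1 without PF431396 library 2. Spp1, which encodes the matrix phosphoprotein osteopontin, rose from 9176, 16731 and 20344 to 73457 and 69109 (2.29 ± 0.33, adjusted p = 0.0049). Msx1, a homeobox factor of skeletal progenitors, fell from 334, 221 and 202 to 27.9 and 36.1 (-2.91 ± 0.40, adjusted p = 0.00436). Both were separated from vehicle in each inhibitor library. Dlx5, a homeobox factor of osteoblasts, was at 272, 1474 and 1719 with vehicle and 64.0 and 114 with PF431396 (-3.35 ± 0.81, adjusted p = 0.0218). Vehicle library 1 was far below the other vehicle libraries, and the call ended without PF431396 library 1 (-2.94, adjusted p = 0.136) or library 2 (-3.77, 0.0906). Of the 14 osteocyte markers, 1 (Hpse, 2.18) was higher and 1 (Irx5, -2.87) lower, 7.14% each. The higher count was 2 without vehicle library 2 or 3, and the lower count 3 without vehicle library 1. Without PF431396 library 1 neither passed (2.16 and -2.92, adjusted p = 0.0591 and 0.0791), nor without library 2 (2.20 and -2.82, 0.0618 and 0.0909). The osteocyte matrix gene Dmp1 was at 96.9, 333 and 421 with vehicle and 437 and 122 with PF431396 (adjusted p = 0.966).

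Of 86 cytosolic ribosomal protein genes, 75 were higher (87.2%) and 1 lower, with a median of 1.43. Their share of counts was 5.22, 6.84 and 6.53% of the vehicle libraries and 10.9 and 11.0% of the PF431396 libraries. With the same total 19 were higher and the median was 0.89. Fau, which encodes a small-subunit protein, rose from 12582, 17217 and 16991 to 53822 and 51702 (1.77 ± 0.18, adjusted p = 0.00269). Rplp2, a protein of the large-subunit stalk, rose from 6775, 9345 and 8227 to 25919 and 26311 (1.70 ± 0.17, adjusted p = 0.00269). In both genes the groups were far apart, with vehicle library 1 the lowest. The exception, Rpl7l1 (-1.49 ± 0.18, adjusted p = 0.00332), encodes a nucleolar relative that helps to assemble ribosomes. Many ribosomal protein genes have processed pseudogenes, and how reads were divided between them is not known here.

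Ribosome biogenesis factors, which make rRNA and assemble subunits, differed in direction from the ribosomal proteins. Of 96 measured, none was higher (5 at an unadjusted p below 0.05) and 38 were lower (39.6%), with a median of -0.86, and 71 were lower with the same total. Without vehicle library 1, 1 was called higher. Nol9, a nucleolar kinase of rRNA processing, fell from 2127, 1466 and 1448 to 347 and 247 (-2.49 ± 0.27, adjusted p = 0.00287). Rrs1, needed for the large subunit, fell from 2452, 1654 and 1679 to 462 and 535 (-1.93 ± 0.24, adjusted p = 0.00359). Nip7, another large-subunit factor, fell from 3536, 2346 and 2187 to 688 and 495 (-2.17 ± 0.28, adjusted p = 0.00372). No inhibitor library reached the lowest vehicle library in these 3 genes. RNA polymerase I, II and III subunits numbered 2 higher and 10 lower of 33 (6.06 and 30.3%, against 10.9 and 15.2% of all genes). The decreases were led by Polr2h, a subunit shared by all 3 polymerases (-2.98 ± 0.46, adjusted p = 0.00571).

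Mitochondrial genes differed by group. Of 13 mitochondrially encoded protein genes, 11 were higher (84.6%, against 10.9% of all genes), and 11 with the same total too. mt-Nd6, a complex I subunit encoded on the light strand, rose from 8340.4, 13935 and 11989 to 60079 and 59947 (2.43 ± 0.23, adjusted p = 0.00262). mt-Co1, the core subunit of cytochrome c oxidase and the most abundant gene in the table, rose from 306190.3, 448313 and 394267 to 1369189 and 1472609 (1.91 ± 0.19, adjusted p = 0.00262). The inhibitor libraries were above every vehicle library in both. Of 83 nuclear genes for respiratory chain subunits, 37 were higher (44.6%, against 10.9% of all genes) and none lower (3 at an unadjusted p below 0.05), with a median of 0.94. The higher count was 21 without PF431396 library 2, and with the same total 7 were higher and 2 lower. Mitochondrial ribosomal protein genes, all nuclear, had 6 higher and 24 lower of 80 (median -0.39), and without PF431396 library 2 the counts were 3 and 13. With all libraries 7.5% of these 80 genes were higher and 30% lower, against 10.9 and 15.2% of all genes. Mrpl50 fell most, from 1299, 999 and 881 to 44.2 and 167 (-3.59 ± 0.55, adjusted p = 0.00576).

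Lysosomal hydrolases, cathepsins and proton pump subunits included 30 higher and 2 lower of 57 (median 1.02). These were 52.6 and 3.51%, against 10.9 and 15.2% of all genes. Increases numbered 18 without PF431396 library 2, and 3 with the same total, and decreases 1 without vehicle library 2, 1 without vehicle library 3, 1 without PF431396 library 1 and 1 without PF431396 library 2. Ctsk, the collagen-degrading cathepsin K, rose from 687, 457 and 561 to 2942 and 2689 (2.32 ± 0.23, adjusted p = 0.00262). Ctsb, which encodes cathepsin B, rose from 6854, 9321 and 9879 to 30685 and 30394 (1.83 ± 0.19, adjusted p = 0.00281). Both passed with the same total too (1.79 and 1.30). The pump subunit gene Atp6v1b2 was an exception, falling from 6165, 4146 and 4187 to 1454 and 1643 (-1.62 ± 0.22, adjusted p = 0.0044).

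**Figure D3:**
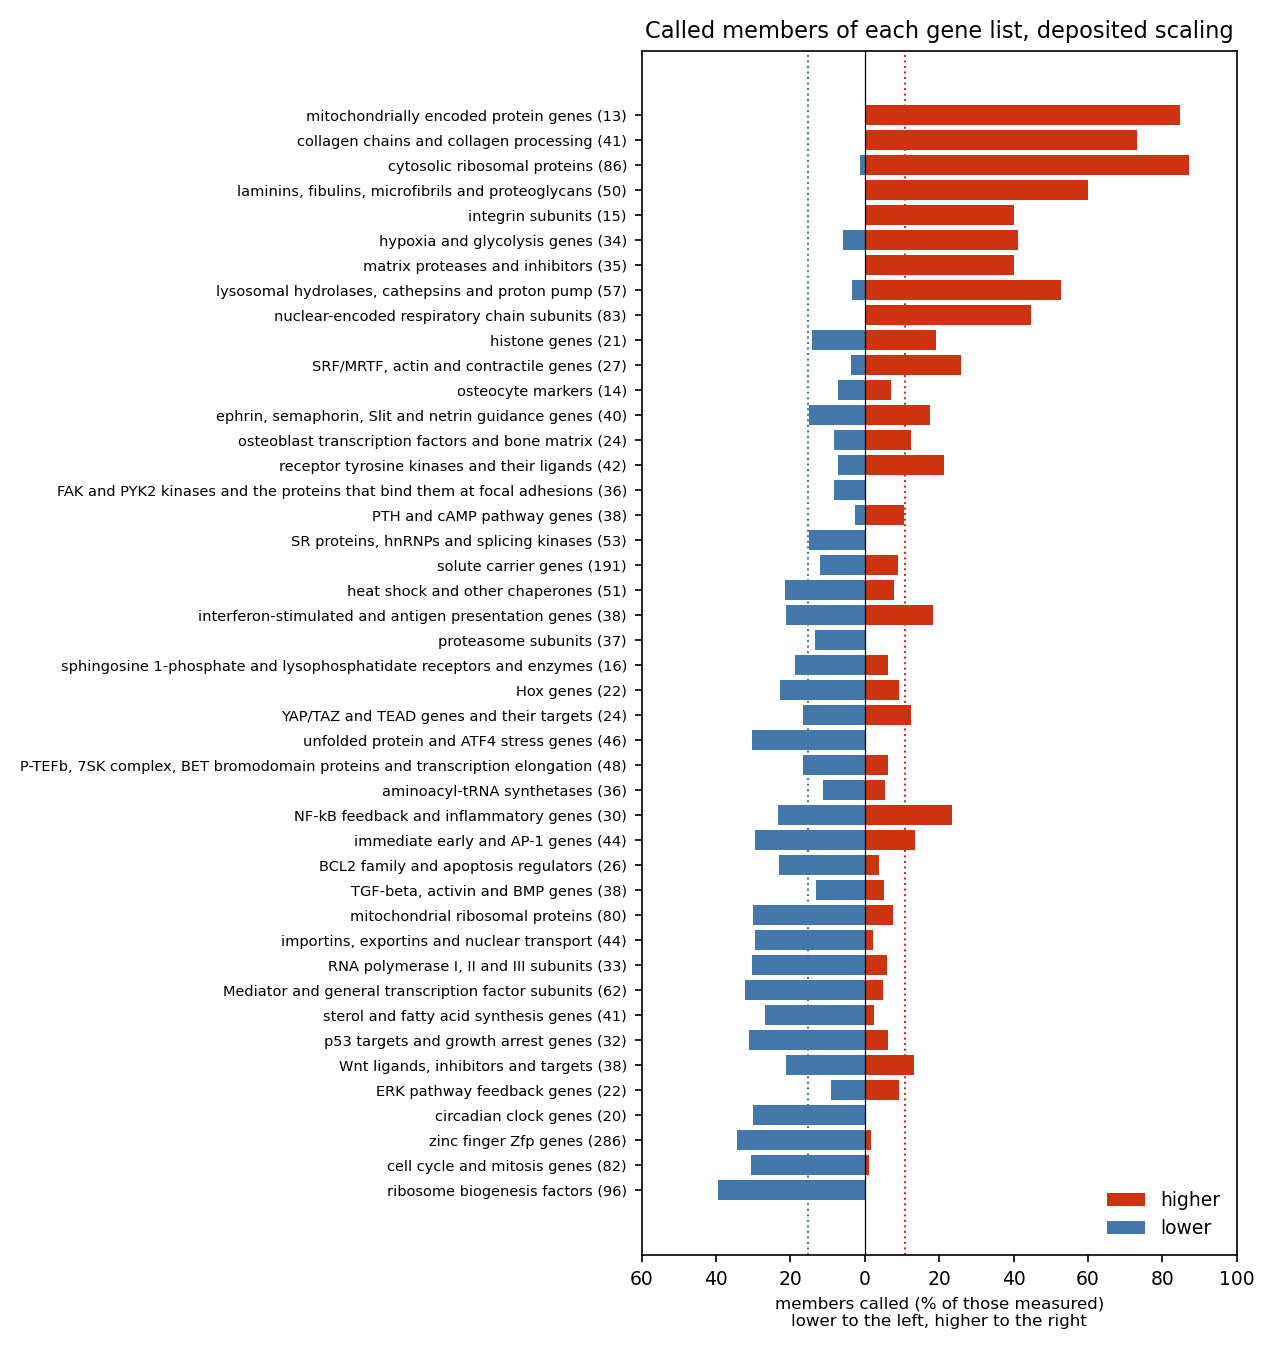
Share of the measured members of each gene list (number in brackets) called higher (right) or lower (left) with PF431396, in percent, ordered by median log2 fold change; dotted lines mark the shares over all 11484 genes, 10.9% higher and 15.2% lower. Lists of ribosomal, mitochondrially encoded and matrix genes are at the top and ribosome biogenesis at the bottom.

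The transcription machinery held more decreases than increases. Of 62 subunits of Mediator, which connects activators to RNA polymerase II, and of general transcription factors, 20 were lower (32.3%) and 3 higher. Med7, a subunit of the Mediator middle module, fell from 766, 504 and 445 to 75.7 and 48.6 (-3.18 ± 0.38, adjusted p = 0.00327). Taf8, a subunit of TFIID, fell from 1035, 678 and 637 to 69.9 and 138 (-2.95 ± 0.40, adjusted p = 0.00426). Gtf2b, which encodes TFIIB, fell from 774, 1203 and 1126 to 262 and 162 (-2.30 ± 0.33, adjusted p = 0.00476). The groups did not overlap in any of them.

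Elongation genes numbered 8 lower and 3 higher of 48 (16.7 and 6.25%, against 15.2 and 10.9% of all genes). Increases numbered 1 without PF431396 library 2, and with the same total 0 were higher and 20 lower. Mepce, which caps the 7SK RNA that holds P-TEFb inactive, fell from 1587, 1080.0 and 1174 to 279 and 154 (-2.60 ± 0.33, adjusted p = 0.00372). Brd2, a bromodomain reader of acetylated histones, fell from 14463, 9894 and 10037 to 3915 and 3987 (-1.51 ± 0.20, adjusted p = 0.00423). Both genes were lower in each inhibitor library than in any vehicle library. Cdk9, the kinase of P-TEFb, was not called (-0.60, adjusted p = 0.0992), although it was with the same total (-1.13). Splicing genes had 8 lower (15.1%, near the 15.2% of all genes) and none higher of 53 (11 at an unadjusted p below 0.05, 1 called without vehicle library 1). The lower count was 5 without PF431396 library 1 and 5 without PF431396 library 2. Among them was the SR protein gene Srsf3, from 8037, 9241 and 9200.4 to 2328 and 2109.9 (-1.99 ± 0.15, adjusted p = 0.00247).

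The unfolded protein response and the ATF4 pathway adapt cells to misfolded protein and lack of amino acids. Of 46 genes, none was higher (7 at an unadjusted p below 0.05) and 14 were lower (30.4%), with a median of -0.26. Atf4, the transcription factor itself, was at 17588, 12403 and 12145 with vehicle and 2707 and 2318 with PF431396 (-2.47 ± 0.21, adjusted p = 0.00247). Ddit3, the CHOP factor it induces, fell from 8469, 5131 and 4423 to 560.0 and 618 (-3.29 ± 0.29, adjusted p = 0.00247). Trib3, another ATF4 target, fell from 11069, 4105 and 3722 to 583 and 684 (-3.13 ± 0.47, adjusted p = 0.00539). Vehicle library 1 was the highest in all 3 genes, and every vehicle library was above both inhibitor libraries. Xbp1 and its target Dnajb9 fell as well (-3.61 ± 0.19 and -2.24 ± 0.19).

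Chac1, a glutathione-degrading enzyme gene and ATF4 target, went from 1325, 946 and 908 to 51.2 and 67.8 (-4.12 ± 0.31, adjusted p = 0.00247). Its promoter window (chr2:119350992-119351291, plus strand, RefSeq GRCm38.p6) is shown for an element like those ATF4 dimers bind, TGATGNAA, found on the minus strand and marked in capitals 193 bases before the start site.
Chac1: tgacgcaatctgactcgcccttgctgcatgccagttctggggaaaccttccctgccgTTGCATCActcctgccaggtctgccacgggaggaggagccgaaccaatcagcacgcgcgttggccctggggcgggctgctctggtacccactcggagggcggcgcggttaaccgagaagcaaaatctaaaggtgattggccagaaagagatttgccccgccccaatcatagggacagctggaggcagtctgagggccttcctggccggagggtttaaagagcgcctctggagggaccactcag
TGATGNAA is in 4.06% of the 27025 windows on either strand.

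Of 82 cell cycle and mitosis genes, 25 were lower (30.5%) and 1 higher, with a median of -0.74. Increases numbered 3 without vehicle library 2, 3 without vehicle library 3 and 0 without PF431396 library 1. Aurka, the mitotic Aurora A kinase, fell from 1528, 1132 and 1069 to 107 and 171 (-3.17 ± 0.31, adjusted p = 0.00262). Plk1, the kinase that drives mitotic entry, fell from 860.4, 900.0 and 958 to 94.3 and 148 (-2.93 ± 0.29, adjusted p = 0.00262). Cdk1 fell by less, from 3297, 3152 and 3294 to 1206 and 1181 (-1.44 ± 0.15, adjusted p = 0.00276). In these 3 genes both inhibitor libraries were below the lowest vehicle library. The widely used proliferation markers Mki67 and Top2a did not reach the fold threshold, at -0.29 and -0.45. Cdk6 was higher (1.64 ± 0.31, adjusted p = 0.00963), a call that ended without PF431396 library 1 (1.71, adjusted p = 0.0546) or library 2 (1.56, 0.0697).

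Genes of growth arrest included decreases too, with 31.25% lower and 6.25% higher, against 15.2 and 10.9% of all genes. Of 32 p53 targets and arrest genes, 10 were lower and 2 higher, and the lower count was 6 without PF431396 library 1 and 4 without PF431396 library 2. Without PF431396 library 2 only 1 was higher. Cdkn1a, the p21 inhibitor of cyclin-dependent kinases, fell from 4829.8, 6814 and 7135 to 1381 and 1486 (-2.11 ± 0.21, adjusted p = 0.00262). Cdkn1b, the p27 inhibitor, fell from 3250.1, 4107 and 4549 to 1030.3 and 1372 (-1.72 ± 0.22, adjusted p = 0.0037). Cdkn2a, whose products include the p16 inhibitor, was instead higher (1.43 ± 0.24, adjusted p = 0.00731), but by 0.89 with the same total, and the call ended without PF431396 library 2 (1.33, adjusted p = 0.0677). Nuclear transport genes had 13 lower and 1 higher of 44 (29.5 and 2.27%, against 15.2 and 10.9% of all genes). With the same total 22 were lower and 0 higher, and the increase rested on PF431396 library 2. The importin gene Kpna2 fell furthest (-4.05 ± 0.30).

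Inflammatory genes went in both directions, with 7 higher and 7 lower of 30 (23.3% each, against 10.9 and 15.2% of all genes). Increases numbered 4 without vehicle library 2, and the lower count was 4 without vehicle library 1, 4 without PF431396 library 1 and 4 without PF431396 library 2. Nfkbia, the inhibitor of NF-kB that NF-kB itself induces, fell from 963, 1207 and 1418 to 128 and 103 (-3.35 ± 0.27, adjusted p = 0.00247). Tlr2, a receptor for bacterial lipoproteins, fell from 193, 219 and 246 to 25.6 and 30.5 (-2.92 ± 0.36, adjusted p = 0.00349). By contrast Ccl5, a T-cell attracting chemokine gene, rose from 59.7, 80.8 and 85.7 to 619 and 439 (2.79 ± 0.36, adjusted p = 0.0037). Il1rl1, the receptor gene for interleukin 33, rose from 21.6, 20.8 and 33.0 to 243 and 175 (3.02 ± 0.44, adjusted p = 0.00493). None of these 4 genes had overlapping groups, and both increases passed with the same total.

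Interferon-stimulated and antigen presentation genes numbered 7 higher and 8 lower of 38, and the lower count was 5 without PF431396 library 1 and 4 without PF431396 library 2. With all libraries the shares were 18.4% higher and 21.1% lower, against 10.9 and 15.2% of all genes. With the same total 1 was higher and 14 were lower. The class I presentation genes B2m and H2-K1 rose, from 34137, 37853 and 34941 to 95342 and 93771 for B2m (1.41 ± 0.13, adjusted p = 0.00257) and by 1.44 ± 0.13 for H2-K1, though by under 1 with the same total (0.88 and 0.91). Irf1, a transcription factor that induces such genes, fell from 1422, 1130.4 and 1202 to 257 and 281 (-2.21 ± 0.22, adjusted p = 0.00262). Isg15, a ubiquitin-like interferon target, also fell (-2.06 ± 0.39, adjusted p = 0.0103).

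Hypoxia and glycolysis genes had 14 higher and 2 lower of 34, but the higher count was 2 without PF431396 library 1 and 1 without PF431396 library 2, and 5 with the same total. With all libraries 41.2% of this list were higher and 5.88% lower, against 10.9 and 15.2% of all genes. The list took 0.714, 1.95 and 1.97% of the vehicle libraries, so vehicle library 1 was far below the other vehicle libraries, and 3.04 and 2.89% of the PF431396 libraries. Hk2, the hexokinase that starts glycolysis, went against the list, from 2012, 2358 and 2338 to 461 and 531 (-2.17 ± 0.19, adjusted p = 0.00247). Sterol and fatty acid synthesis genes had 11 lower and 1 higher of 41, and the lower count was 21 without vehicle library 1, 6 without PF431396 library 1 and 5 without PF431396 library 2. The increase was lost when either PF431396 library was left out. With all libraries 26.8% of the sterol and fatty acid list were lower and 2.44% higher, against 15.2 and 10.9% of all genes. Hmgcs1, an early enzyme of cholesterol synthesis, fell from 1979.5, 4405 and 4390.0 to 478 and 621 (-2.63 ± 0.38, adjusted p = 0.00516).

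Of 20 circadian genes, 6 were lower and none higher (1 at an unadjusted p below 0.05), and the lower count was 3 without PF431396 library 1 and 3 without PF431396 library 2. With all libraries 30% of these circadian genes were lower, against 15.2% of all genes. Bhlhe40, a clock-linked repressor, fell from 4227, 9266 and 9906 to 1093 and 1375 (-2.57 ± 0.38, adjusted p = 0.00528), and Nr1d1, the REV-ERB alpha repressor, from 382, 527 and 656 to 88.5 and 112 (-2.34 ± 0.34, adjusted p = 0.00507). Among 40 guidance genes, 7 were higher (17.5%) and 6 lower, against 10.9 and 15.2% of all genes. Increases numbered 4 without PF431396 library 1 and 3 without PF431396 library 2, and with the same total 0 were higher and 8 lower. The ephrin gene Efnb1 fell from 952, 1530.4 and 1790.3 to 254 and 202 (-2.60 ± 0.32, adjusted p = 0.00353), and the ephrin receptor gene Ephb4 from 1059, 1322 and 1363 to 265 and 201 (-2.42 ± 0.25, adjusted p = 0.00269). Of 38 genes for Wnt ligands, inhibitors and targets, 5 were higher and 8 lower (13.2 and 21.1%, against 10.9 and 15.2% of all genes). The lower count was 10 without vehicle library 1, 5 without vehicle library 2 and 4 without vehicle library 3. The higher calls rested on both PF431396 libraries. With the same total 1 was higher and 17 lower. The decreases included the frizzled Wnt receptor genes Fzd8 and Fzd7 (-2.99 and -1.95, adjusted p = 0.0184 and 0.00359). Fzd8 differed between the PF431396 libraries, at 47.7 and 258, with 647, 1018 and 1061 in the vehicle libraries. Of 16 measured enzymes and receptors of lysophospholipid signals, 3 were lower and 1 higher (18.75 and 6.25%, against 15.2 and 10.9% of all genes). These shares were not far from those of all genes, and 12 members were not called. S1pr2, Sphk2 and Lpar2 were lower (-4.04, -3.20 and -1.53), while Enpp2, the autotaxin that makes lysophosphatidate, rose from 117, 92.8 and 66.0 to 445 and 519.6 (2.41 ± 0.37, adjusted p = 0.0056).

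**Figure D4:**
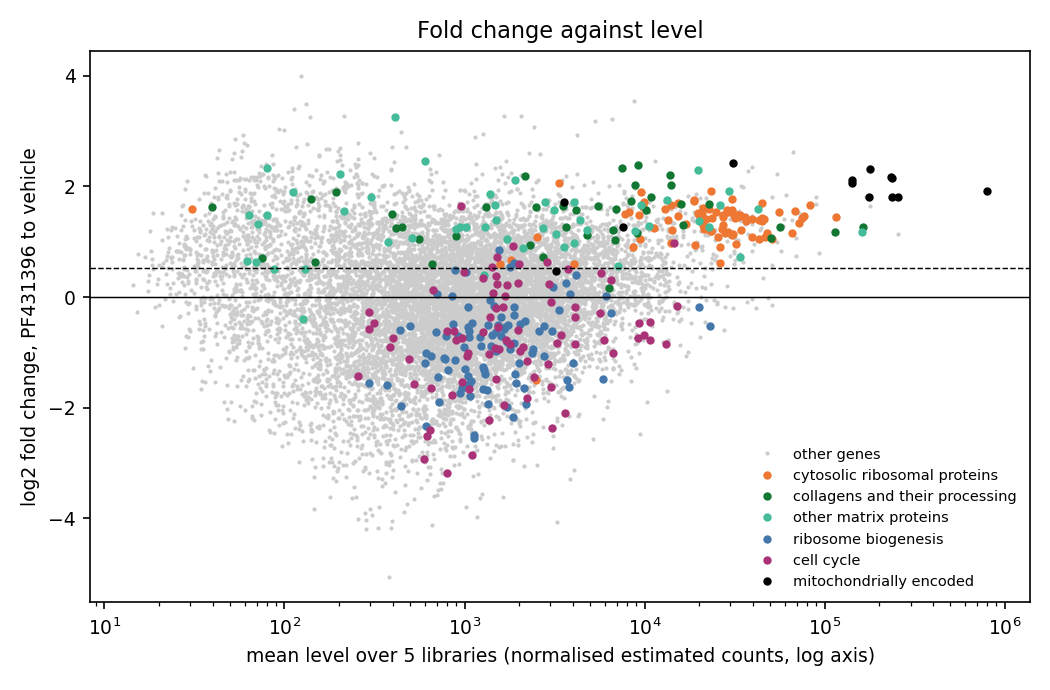
Log2 fold change of PF431396 to vehicle (vertical axis) against the mean level over 5 libraries (horizontal axis, normalised estimated counts, log scale), 1 point per gene, with 6 gene lists in colour. The solid line marks 0 with the deposited scaling, the dashed line marks where 0 lies with the same total, and the ribosomal and mitochondrially encoded genes lie to the upper right.

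Beyond the lists, several genes of moderate level had deep decreases. Tmem115, a Golgi membrane protein gene, went from 784, 721 and 703 to 51.2 and 46.3 (-3.89 ± 0.28, adjusted p = 0.00247). Bet1l, a SNARE of Golgi transport, went from 521, 494 and 448 to 30.3 and 31.6 (-3.93 ± 0.31, adjusted p = 0.00247). Vps18, a subunit of complexes that tether vesicles to lysosomes, went from 1862, 1480.0 and 1543 to 141 and 96.0 (-3.79 ± 0.27, adjusted p = 0.00247). In each the inhibitor level was a small fraction of every vehicle library. Among 15 lower genes with the highest mean level, Eif3a, the largest subunit of initiation factor eIF3, went from 24461, 15226 and 15694 to 5373 and 5694 (-1.70 ± 0.23, adjusted p = 0.00436). Changes of log2 2 or more were made up of 171 increases and 487 decreases.

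The share of genes called lower differed with exon number. A GENCODE M21 (GRCm38) protein-coding gene could be matched by symbol for 10865 genes (94.6%), and 15.6% of these were lower and 10.6% higher. Of 191 genes with 1 exon in the reference transcript, 38.2% were lower, and of 425 with 2 exons 40.2%. The share was 24.6% at 3 to 4 exons, 17.2% at 5 to 8, 13.5% at 9 to 15 and 6.29% of the 2673 genes with 16 or more. Higher calls showed no such order, from 6.59% at 2 exons to 14.6% at 3 to 4. With the same total the lower shares were 50.3% at 1 exon, 55.8% at 2 and 21.2% at 16 or more.

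**Figure D5:**
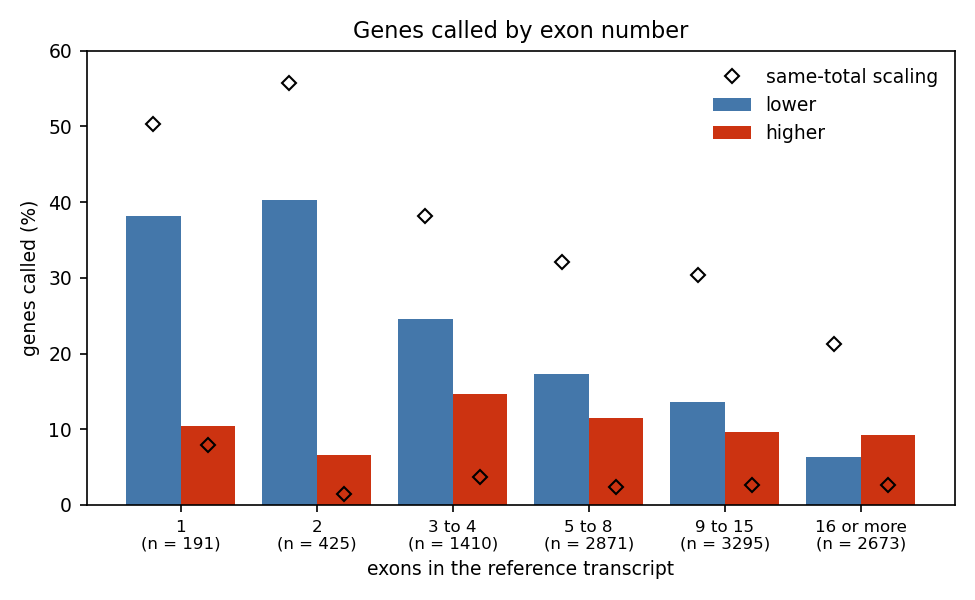
Share of protein-coding genes called lower (blue) or higher (red) with PF431396, in percent, by number of exons in the reference transcript, with the number of genes under each bin; diamonds give the same shares with all libraries brought to the same total. Lower calls run from 38.2 and 40.2% at 1 and 2 exons to 6.29% at 16 or more.

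The 616 genes with 1 or 2 exons were lower in 39.6% overall and in 29.7 to 42.7% of genes when any 1 library was left out, against 4.12 to 6.51% for 16 or more exons. Levels differ between these classes, with medians of 427 and 1458. Among genes of mean level 300 to 1000, 51.7% of the few-exon and 8.45% of the many-exon genes were lower, and from 1000 to 3000 the shares were 43.0 and 8.01%. Over 3000 the few-exon genes were more often higher than lower: 13.5% of 52 few-exon genes were lower and 44.2% higher, against 2.96 and 10.7% of many-exon genes. Leaving out Zfp zinc finger genes gave 38.6%. By mRNA length the order differed: 40.0% of 565 genes with up to 1000 bases were higher and 5.66% lower, against 6.80 and 10.5% of genes over 5000 bases. Few-exon genes with an mRNA over 1000 bases were lower in 42.3% and higher in 5.22%. Of the 60 with up to 1000 bases, only 9 (15%) were lower, near the share of all matched genes, and 19 (31.7%) were higher. These shares describe genes, which are not independent replicates.

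Genes described above are found in these classes. Msx1, Klf9 and Tmem115, all lower, have 2 exons each, and Rrs1 has 1. Jun, Jund and Junb, with 1 exon each, rose. Zfp zinc finger genes, most of them repressors of the KRAB family, had 98 lower and 5 higher of 286 (median -0.68). These shares were 34.3 and 1.75%, against 15.2 and 10.9% of all genes. The lower count was 59 without vehicle library 2 and 63 without vehicle library 3. Increases numbered 3 without vehicle library 2 and 1 without PF431396 library 2.

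Markers of other cell types were mostly not among the rows analysed. Those listed were 1 of 6 adipocyte, 2 of 5 chondrocyte, 2 of 8 macrophage and osteoclast, 1 of 5 endothelial and 1 of 5 muscle markers. The adipocyte marker was Cebpa, a factor of fat cell differentiation, which fell from 589, 769.6 and 749 to 229 and 84.7 (-2.31 ± 0.45, adjusted p = 0.0107). Of the chondrocyte markers, the cartilage matrix gene Comp rose from 31.16, 36 and 21.42 to 197 and 117 (2.36 ± 0.47, adjusted p = 0.0114), a call that ended without PF431396 library 1 (1.99, adjusted p = 0.0578), and Sox9 did not pass (-0.33, adjusted p = 0.526). Des, the muscle marker, did not pass either (-0.95, adjusted p = 0.179). Cd68, a lysosomal protein of macrophages, rose from 177, 251 and 278 to 1867 and 1013 (2.57 ± 0.36, adjusted p = 0.00457), and Vwf, a blood clotting protein of endothelium, from 238, 419 and 551 to 3353 and 1209 (2.40 ± 0.52, adjusted p = 0.0154), a call that ended without PF431396 library 1 (1.67, adjusted p = 0.0884). With Ctsk, described above, the macrophage and osteoclast markers summed to 708 to 865 with vehicle and 3703 to 4809 with PF431396. Adgre1, Csf1r, Ptprc and Tyrobp were not among the rows, nor were Pecam1, Cdh5, Kdr and Tek. The part of other cells in these results was not tested.

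PTH and the KO were compared with the same vehicle libraries, each in a table with its own scaling, so values are only set side by side as differences of mean log2 values. For Xbp1 these were -3.61 with PF431396, 0.33 with PTH and -0.29 in the KO. For Aurka they were -3.17, -0.37 and 0.02, and for Bhlhe40 -2.57, 1.04 and 0.15. Enpp2 had 2.41, 0.27 and 3.61. Differences between the treatments were not tested here.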

How the data were processed

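The 12 samples of the series fall into 4 groups, and the 6 samples of 2 groups enter here. The submitters' processing notes name FastQC 0.11.5 for read quality, Salmon with a GRCm38 index for quantification and DESeq2 for the comparison, with no other versions. How transcripts were summed to genes, and with which annotation, is not given in the sources. The deposited signal of each library is a normalised estimated count: values were whole multiples of 1 step per library within 0.02 counts, so the authors divided estimated counts by a size factor. The lowest count listed was 11, so rarer genes are absent from the table. The deposited log2 fold changes and adjusted p-values are the authors' own, and their deposited −log10 p column was not used.

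Of 11490 rows, 6 without a symbol (at most 0.0197% of counts) were left out, and 13 repeat a symbol. Values were analysed as log2(value + 1), which understates changes of low genes, with limma 3.58.1 (trend and robust, R 4.3.3) over all named genes, 3 vehicle against 2 PF431396 libraries. Fold changes (log2) carry their SE. The fit was first tested on simulated data. The alternatives covered scaling, pseudocount, filter, fold threshold, fit settings, the repeated library, a replicate block and left-out libraries. Gene lists were described by counts and medians, with no test.

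The genes, lists and alternatives were chosen with earlier results of these data known. Genes were named if among the 25 largest changes per direction with a mean of at least 100, the 15 most abundant called genes per direction, up to 8 called members per list, or members of the FAK, P-TEFb and mitochondrially encoded lists. B2m, Cdk1, Cdk6, Col1a1, Des, Dmp1, Egr1, Itgb4, Junb, Jund, Mki67, Myc, Pdpn, Phex, Rpl7l1, Sox9 and Top2a were added after their values were seen. Exon numbers came from 1 reference transcript per gene, the APPRIS principal one where given. Promoter windows were matched by symbol for fewer genes than a comparison of motifs between called classes needs, and none was made.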

Additional observations from a re-analysis of the deposited data

How the results depend on the processing

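The 3005 called genes became 658 at a log2 fold change of at least 2, and 1756 to 2917 when 1 library was left out. Higher genes numbered 1257 with the deposited scaling, 344 with the same total, 485 with the same total without mitochondrially encoded genes, 1938 at any fold change, 171 at a log2 fold change of at least 2, and 570 to 1198 without 1 library. Lower genes numbered 1748, and under the same settings 3470, 2989, 2327, 487 and 1186 to 1719. The mitochondrially encoded share differed by 7.22 to 8.41 percentage points without 1 library. Pseudocounts of 0.5 and 10 gave 3003 and 2994 called genes, a mean of at least 100 gave 2851, limma without trend or robust 2985, and the repeated library entered as a library 3425.

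Libraries of both groups carry replicate numbers, but same-numbered deviations had correlations of only -0.00688 and -0.0178, so the numbers were not taken to pair samples. A replicate block over the first 2 pairs gave 2749 called genes, 1212 higher and 1537 lower.

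Among 102 genes named in the text, 88 were called. These genes were mainly picked by their calls in these same libraries, so their stability does not describe other genes. With the same total, 26 of the 33 higher and all 55 lower ones were called. Over all genes 344 of the 1257 higher and all 1748 lower ones were. Because the same total lowers nearly all fold changes alike, keeping every decrease follows largely from the rescaling and does not test the decreases. The log2 fold change of Ptk2 turned with the same total (-0.46), with the same total without mitochondrially encoded genes (-0.33), with the repeated library entered (-0.015) and without PF431396 replicate 2 (-0.20), the highest value without 1 library being 0.35. That of Dmp1 turned with the repeated library entered (0.26) and in the replicate block (0.36), and was between -0.96 and 0.87 without 1 library, positive without vehicle replicate 2 (0.19), vehicle replicate 3 (0.36) or PF431396 replicate 2 (0.87). That of Itgb4 was -0.72 without PF431396 replicate 2 and at most 5.48 without another library. With all libraries none of these 3 genes was called, and the cause was not tested. The planned edgeR and DESeq2 tests were not run, and the values were analysed as a normalised signal only. With 2 distinct PF431396 libraries and counts under 11 missing, small changes and rare genes could not be assessed.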
